A study of Mus musculus with 8 samples.

Results

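The genes described here encode the proton pump of the kidney's intercalated cells, with the exchangers and the transcription factor that define those cells. They were chosen by gene symbol from the deposited table of expression values, and all 10 chosen symbols were found among its 52195 genes. The 10 genes fall into 2 groups. The 7 intercalated-cell genes are Atp6v1g3, Atp6v0d2, Atp6v1b1, Atp6v0a4, Slc4a1, Slc26a4 and Foxi1. The other 3, Atp6v1b2, Atp6v0d1 and Atp6v1g1, are the widely expressed paralogues of the restricted pump subunits. Expression was measured by bulk RNA sequencing of small intestine, liver, lung and kidney from male C57BL/6J mice of 6 to 10 weeks, with 2 libraries per tissue. The labels give the strain as C57BL/6 and name no treatment or genetic change. Each tissue was ground whole, so a library holds all cell types of its organ, and the libraries of a tissue came from separate mice. Per the methods all 4 organs were taken from each animal, so libraries of different tissues can share a mouse, but which of them do is not given in the sources used here. Values are in FPKM, the fragments counted on a gene relative to its exon length and to the size of the library.

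Intercalated cells sit among the principal cells of the connecting tubule and collecting duct and keep the acid-base balance of the blood. Their pump, the vacuolar H+-ATPase, joins a cytoplasmic V1 sector that splits ATP to a membrane V0 sector that moves protons, and several subunits exist as a widely expressed form and a form restricted to a few acid-secreting epithelia. Type A cells pump protons into the urine and return bicarbonate to the blood through the anion exchanger AE1, whereas type B cells secrete bicarbonate through pendrin, and the forkhead factor Foxi1 is required for both. Loss of the B1 or the a4 subunit is a known cause of distal renal tubular acidosis.

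The restricted subunit genes were described first by the sequence just before their transcription start. The promoters of 3 restricted subunits and the promoter of a widely expressed paralogue are printed because these subunits carry the comparisons of expression. Each is the 250 bases upstream of the RefSeq start (build GRCm38.p6), written 5′ to 3′ on the gene's strand, with every CpG dinucleotide in capitals. The windows are chr1:138273488-138273737 on the plus strand, chr6:38124587-38124836 on the minus strand, chr6:83742767-83743016 on the plus strand and chr8:105566065-105566314 on the minus strand.
Atp6v1g3: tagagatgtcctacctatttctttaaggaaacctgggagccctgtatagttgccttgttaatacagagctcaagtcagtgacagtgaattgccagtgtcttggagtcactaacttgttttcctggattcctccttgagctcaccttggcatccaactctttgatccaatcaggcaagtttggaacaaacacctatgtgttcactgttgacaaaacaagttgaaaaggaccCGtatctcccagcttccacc
Atp6v0a4: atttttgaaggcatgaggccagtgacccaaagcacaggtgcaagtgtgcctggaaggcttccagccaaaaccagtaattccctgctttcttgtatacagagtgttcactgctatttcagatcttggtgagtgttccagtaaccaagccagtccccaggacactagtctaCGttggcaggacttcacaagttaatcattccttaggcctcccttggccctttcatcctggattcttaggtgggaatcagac
Atp6v1b1: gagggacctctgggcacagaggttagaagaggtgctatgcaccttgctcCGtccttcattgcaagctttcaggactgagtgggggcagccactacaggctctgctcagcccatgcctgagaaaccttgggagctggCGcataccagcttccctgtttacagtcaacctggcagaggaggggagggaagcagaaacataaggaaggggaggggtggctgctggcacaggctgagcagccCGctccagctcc
Atp6v0d1: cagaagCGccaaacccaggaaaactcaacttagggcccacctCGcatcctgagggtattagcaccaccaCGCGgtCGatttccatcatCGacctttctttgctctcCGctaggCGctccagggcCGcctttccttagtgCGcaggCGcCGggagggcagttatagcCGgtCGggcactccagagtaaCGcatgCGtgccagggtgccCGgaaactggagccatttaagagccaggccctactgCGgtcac

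The Atp6v1g3 and Atp6v0a4 windows held 1 CpG each, the Atp6v1b1 window held 3, and the windows of Slc26a4 and Foxi1 held 4 each. The Atp6v0d1 window held 18. Across 20 promoters of 15 other pump and accessory genes the number of CpG ranged from 2 to 25, with a median of 14.5. Over all 32851 promoters of the RefSeq table, the median was 6 and 44.4% of windows of this length held 4 or fewer, so a low number was common in the genome. The 6 letters TGTTTA, the core bound by forkhead factors, were searched on both strands. Of the 5 intercalated-cell promoters in the table, 1 held them, that of Atp6v1b1 at 98 bases before the start, compared with 12.0% of all promoters. The letters CACGTG, the core of the element that lysosomal genes share, occurred in 0 of these 5 promoters and in 2 of the 20 of other pump genes, those of Atp6v1a and Atp6v0b, compared with 6.02% of all promoters. These matches are descriptions of sequence. Promoters of Atp6v0d2, Slc4a1, Atp6v1b2 and Atp6v1g1 were not analysed here.

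Whole reads could be recovered from the steps of the deposited values, which gave 9164187 to 21444675 reads counted on genes per library, with the most in kidney. The kidney libraries differed more from each other than the libraries of the other tissues did. This was counted among the genes tested below that had a mean FPKM of at least 1 in the tissue and both libraries above 0. Of these, 18.8% differed more than 2-fold between the kidney replicates, against 3.94% to 5.24% between those of the other tissues. No least number of reads was set, so genes with few reads are included. The size of the kidney difference for the chosen genes is given after the comparisons. The limma p-values rest on the spread between 2 libraries per tissue. The exact permutation p-values compare the kidney libraries with all other libraries pooled, so they also depend on differences among the other tissues. In bulk tissue, fewer cells of a type and less RNA per cell cannot be told apart.

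Each of the 7 intercalated-cell genes was higher in kidney than in lung, liver and small intestine averaged, and for 6 of them the lower kidney library stood above every library of those tissues. The exception was Atp6v0d2, whose lung and kidney libraries overlapped. Of the widely expressed paralogues, 2 of 3 were also called higher in kidney. The call required an adjusted p under 0.05 in limma and an absolute difference over 1 on log2(FPKM + 1). By this rule 8.65% of the 16328 genes tested were called higher in kidney, against 7 of 7 intercalated-cell genes and 2 of 3 paralogues. The share of all genes with both kidney libraries above the 6 others was 8.6%, against 6 of 7 and 2 of 3. Genes were tested if they reached an FPKM of 1 in at least 2 libraries. Atp6v0a4, Atp6v1b1, Atp6v1g3 and Foxi1 did so in kidney alone and could pass only by being high there, so the count of 7 is a description of these genes. Without that filter, all 7 were still called. The median difference was 3.28 for the intercalated-cell genes and 1.23 for the paralogues, beside -0.34 over all genes tested.

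**Figure D1:**
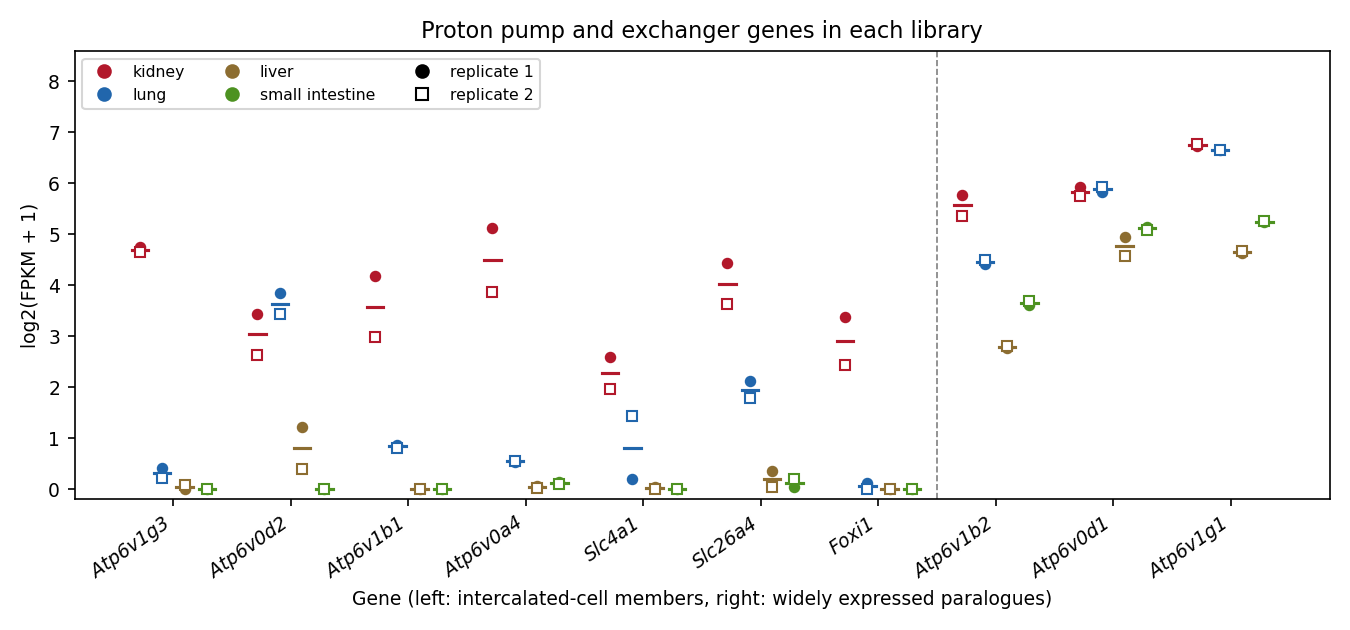
Expression of the 10 genes in each of the 8 libraries, as log2(FPKM + 1) on the vertical axis. Filled circles are replicate 1, open squares are replicate 2, horizontal bars are the mean of the 2 libraries of a tissue, and the dashed line separates the 7 intercalated-cell genes from the 3 widely expressed paralogues. Kidney points stand above all others for 6 of the 7 genes on the left, and the lung points of Atp6v0d2 overlap with those of kidney.

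Atp6v1g3 (ENSMUSG00000026394, chr1:138273738-138289462, GRCm38) encodes G3, the restricted form of a stalk subunit of the V1 sector. In kidney its FPKM was 25.8 and 24.2, compared with 0.326 and 0.171 in lung. Liver had 0 and 0.0513, and small intestine had 0 in each library. Kidney stood far above all other libraries, and the lung values rested on 6 and 4 reads. The mean in kidney was 101-fold that of lung and at least 325-fold that of small intestine, where 3 reads over the tissue were taken as the floor. The difference on log2(FPKM + 1) was 4.58 (SE 0.12, limma adjusted p = 5.60e-07), the largest of the 10 genes. Its kidney libraries differed by only 1.07-fold, the least of the 7 genes.

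Atp6v0a4 (ENSMUSG00000038600, chr6:38048483-38124586) encodes a4, the restricted form of the large membrane subunit that steers the pump to its target membrane. In kidney its FPKM was 34.0 and 13.6, compared with 0.453 and 0.469 in lung. Liver had 0.0439 and 0.0195, and small intestine had 0.107 and 0.0710. Kidney replicate 1 was 2.5-fold replicate 2, yet the lower kidney library was well above the highest value elsewhere. The kidney mean was 51.6-fold that of lung and 267-fold that of small intestine, where 9 reads were counted in all. Without kidney replicate 1 these were 29.5-fold and 152-fold. The log2 difference was 4.26 (SE 0.29, limma adjusted p = 2.06e-05). Of its exon length, 6.46% overlaps D630045J12Rik and Tmem213, so reads in that stretch are uncertain. D630045J12Rik lies on the same strand as Atp6v0a4, and only Tmem213 could be told apart by strand, whose use is not given in the sources used here.

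Atp6v1b1 (ENSMUSG00000006269, chr6:83742990-83758855) encodes B1, the restricted form of the subunit that takes part in ATP binding in the V1 sector. Its FPKM was 17.0 and 6.90 in kidney and 0.818 and 0.753 in lung, and no read was counted in liver or small intestine. The kidney libraries did not overlap with lung, and lung was above the 4 remaining libraries. The kidney mean was 15.2-fold that of lung, at least 340-fold that of liver and at least 361-fold that of small intestine. Without kidney replicate 1 these were 8.78-fold, at least 196-fold and at least 208-fold. The log2 difference from the other tissues was 3.30 (SE 0.27, limma adjusted p = 5.26e-05). Lung exceeded liver by 0.84 on this scale (adjusted p = 0.0485), which fell short of the required difference of 1.

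Atp6v0d2 (ENSMUSG00000028238, chr4:19876841-19922605) encodes d2, the restricted form of the subunit that joins the rotor to the V1 sector, known also from osteoclasts and macrophages. In kidney its FPKM was 9.86 and 5.23, compared with 13.3 and 9.81 in lung. Liver had 1.33 and 0.321, and small intestine had 0 in each library. The kidney and lung libraries overlapped, since kidney replicate 1 was marginally above lung replicate 2, while liver was low and small intestine at 0. The kidney mean was 0.653 of the lung mean. Kidney was called higher than the other tissues together, by 1.56 (SE 0.29, limma adjusted p = 0.00258). The difference of kidney minus lung was -0.60 (SE 0.35, adjusted p = 0.160), and its direction turned under other scalings of the libraries, to 0.38 with median-of-ratios scaling, 0.23 with quantile normalization and 0.04 without mitochondrial genes. Lung was called above liver by 2.83 (adjusted p = 0.000172) and above small intestine by 3.64 (adjusted p = 6.62e-05). Of all genes, 55.5% were called higher in lung than in liver and 30.6% higher in lung than in small intestine.

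Markers of macrophages, listed because this subunit is known from them, were high in lung. The summed FPKM of the 9 macrophage genes was 5842 and 5327 in the lung libraries, and 27.6 to 135.5 in the other 6. All 9 were called lower in kidney than in the other tissues, led by Lyz2 by -3.90 (lysozyme), Ear2 by -2.88 and Chil3 by -2.72 (both abundant in alveolar macrophages), where 16.1% of all genes were called lower. Like Atp6v0d2, 7 of the 9 were higher in lung replicate 1 than in lung replicate 2, some by little, such as Lyz2 at 5269 and 4833. The other 2, Csf1r (22.7 and 27.0) and Itgax (8.25 and 8.95), were lower there. Over all genes compared in lung, the median log2 of replicate 1 over 2 was -0.08. The osteoclast fusion genes Dcstamp and Ocstamp had at most 4 reads in either lung library, and Calcr, the calcitonin receptor of osteoclasts, had 4 and 2. The summed FPKM of the 6 osteoclast genes was 36.7 to 41.8 in lung, 15.4 to 16.6 in kidney, 31.1 to 33.3 in liver and 40.4 to 47.3 in small intestine. In lung and kidney most of it came from Acp5 and Ctsk, which macrophages also express. Of the osteoclast genes, 3 were tested and 1, Mmp9, was called, lower in kidney by -1.46. The part of macrophages in the lung level of Atp6v0d2 was not tested.

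Slc4a1 (ENSMUSG00000006574, chr11:102348824-102366203) encodes the anion exchanger AE1, which type A cells carry on their blood side and which is also band 3 of the red cell membrane. In kidney its FPKM was 5.05 and 2.92, compared with 0.147 and 1.69 in lung. Liver had 0.0223 and 0, and small intestine had 0 in each library. Both kidney libraries were above lung, but the lung libraries differed from each other by far more, with 7 and 103 reads. The log2 difference from the other tissues was 2.01 (SE 0.31, limma adjusted p = 0.00100). Kidney minus lung was 1.47 (adjusted p = 0.00875). This call was lost without kidney replicate 1 (1.16, adjusted p = 0.0561) and without lung replicate 1 (0.85, adjusted p = 0.0350), where the difference was under 1.

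Red cell genes were set beside Slc4a1 between the replicates of lung and of kidney. In lung, 9 of the 10 erythroid genes were higher in replicate 2, as Slc4a1 was, each by a smaller factor. Alas2 had an FPKM of 14.9 and 18.4 and Hba-a1 5028 and 5959, against 0.147 and 1.69 for Slc4a1. Epb42, a membrane skeleton protein of red cells, had 2 and 14 reads, while the red cell ankyrin gene Ank1 was lower in replicate 2, at 0.303 and 0.232. Over all genes compared in lung, the median log2 of replicate 1 over 2 was -0.08. The summed FPKM of the 10 erythroid genes was 19204 and 24901 in the lung libraries. In kidney it was 872 and 2411, so it was higher in replicate 2, where Slc4a1 was lower, and 7 of the 10 genes followed this order. In kidney Epb42 had 13 reads in each library and Ank1 had 1 and 2. Of the 6 erythroid genes tested, 2 were called, both lower in kidney, where 16.1% of all genes were called lower. They were the heme synthesis gene Alas2 by -1.89 and the mitochondrial iron importer Slc25a37 by -1.10. The part of red cell precursors in the lung level of Slc4a1 was not tested.

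Slc26a4 (ENSMUSG00000020651, chr12:31519827-31559969) encodes pendrin, the chloride and bicarbonate exchanger of type B cells, which also carries iodide in the thyroid. In kidney its FPKM was 20.7 and 11.4, compared with 3.33 and 2.43 in lung. Liver had 0.281 and 0.0312, and small intestine had 0.0344 and 0.142. The kidney libraries were above lung, lung was above the rest, and liver and small intestine overlapped at 1 to 8 reads per library. The kidney mean was 5.56-fold that of lung, and no fold is given over liver and small intestine, where 9 and 6 reads were counted in all. The log2 difference was 3.28 (SE 0.23, limma adjusted p = 2.57e-05). Lung was called above liver by 1.75 (adjusted p = 0.000784) and above small intestine by 1.83 (adjusted p = 0.000946).

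Lung Slc26a4 was set beside the other cells known for it. The thyroid gene Tg, which encodes thyroglobulin, had 18 and 17 reads in the lung libraries. The summed FPKM of the 5 thyroid genes was 3.88 and 4.02 there, 28.4 to 31.6 in kidney and 34.4 to 36.4 in liver. Nearly all of it came from the deiodinase gene Iyd, for which kidney was called above the average of the remaining tissues by 1.18 while liver, at an FPKM of 36.4 and 34.4, was above kidney, at 31.3 and 28.3. Airway ionocytes, a rare lung cell type that also uses Foxi1 and the proton pump, are marked by Foxi1 itself, with 2 and 0 reads in lung, by Ascl3, with 2 reads in each lung library, and by Foxi2, which was at 0 in all libraries. The 3 tested genes of the ionocyte list were well above this in lung, at 97 to 205 reads per library, among them Stap1 with 151 and 205 and P2ry14 with 122 and 190. The summed FPKM of the 6 ionocyte genes was 5.22 and 5.79 in lung, 1.45 in each kidney library and up to 9.51 in small intestine. In kidney against the other tissues, 0 of the 3 ionocyte genes tested were called by limma, beside 24.7% of all genes called in either direction. All 3 had an unadjusted p under 0.05, with differences from -0.81 to -0.36 and adjusted p of 0.0102 or less. The source of the lung reads of Slc26a4 was not tested.

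Foxi1 (ENSMUSG00000047861, chr11:34204338-34208089) encodes the forkhead transcription factor on which intercalated cells depend. Its FPKM was 9.44 and 4.44 in kidney and 0.0869 and 0 in lung, and no read was counted in liver or small intestine. Kidney held 477 and 181 reads against 2 reads in the 6 other libraries together, so the groups did not overlap. The kidney mean was at least 106-fold that of liver and at least 113-fold that of small intestine, or at least 67.9-fold and 72.1-fold without kidney replicate 1. The log2 difference was 2.89 (SE 0.22, limma adjusted p = 3.34e-05).

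Of the pairs of tissues beside kidney, liver and small intestine differed by the rule in none of the 10 genes (36.2% of all genes were called in either direction). At an unadjusted p under 0.05 in limma, 2 of the 10 differed there, both paralogues, with differences given below. Kidney was called above lung for 6 of the 7 intercalated-cell genes (8.87% of all genes), and above liver and small intestine for all 7 (16.2% and 10.7%). For Atp6v1g3, Atp6v0a4, Foxi1 and Slc4a1 the 3 tissues beside kidney were not told apart by limma, with adjusted p of 0.0819 or more. In the exact permutation test of single genes over all 28 ways to choose 2 of 8 libraries (two-sided), the p for kidney against the others was 0.0357, the smallest it can give, for 6 intercalated-cell genes and Atp6v1b2. It was 0.357 for Atp6v0d2, 0.0714 for Atp6v1g1 and 0.286 for Atp6v0d1 in the same exact test.

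The widely expressed paralogues were present in every library, at levels that differed among tissues. Atp6v1b2 (ENSMUSG00000006273, chr8:69088646-69113711), which encodes B2, had an FPKM of 53.6 and 40.0 in kidney, compared with 20.4 and 21.6 in lung. Liver had 5.78 and 6.04, and small intestine had 11.2 and 11.9. The 4 tissues did not overlap for it, and kidney was highest. Its log2 difference was 1.93 (SE 0.14, limma adjusted p = 2.59e-05), and kidney minus lung was 1.11 (adjusted p = 0.000718), or 0.90 without kidney replicate 1. Atp6v1g1 (ENSMUSG00000039105, chr4:63544772-63550750), which encodes G1, had an FPKM of 104.9 and 108.4 in kidney, compared with 99.7 and 100.2 in lung. Liver had 23.8 and 24.3, and small intestine had 36.6 and 37.3. Kidney and lung stood together above the other tissues. The log2 difference was 1.23 (SE 0.10, adjusted p = 4.04e-05), while kidney minus lung was 0.09 (adjusted p = 0.504), or 1.19 with median-of-ratios scaling (adjusted p = 0.00273). Of its 31-base words, 24.0% also occur in other genes, among them Gm12344 and Gm13453, so its level is uncertain where reads were shared.

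Atp6v0d1 (ENSMUSG00000013160, chr8:105524465-105566047), which encodes d1, had an FPKM of 59.5 and 52.9 in kidney, compared with 55.9 and 60.0 in lung. Liver had 29.9 and 22.9, and small intestine had 34.3 and 33.1. Kidney and lung overlapped, above liver and small intestine. Kidney against the other tissues gave 0.58 (SE 0.13, limma adjusted p = 0.00721), under the required difference of 1. Without mitochondrial genes it was 1.17 (adjusted p = 0.000338) and was called. In liver against small intestine, Atp6v1b2 and Atp6v1g1 were lower in liver, by -0.86 (adjusted p = 0.00362) and -0.60 (adjusted p = 0.00368), both short of a difference of 1.

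The ratio of a restricted form to its widely expressed paralogue within a library does not depend on how the libraries were scaled, except through the added 1 FPKM. For the a subunit the mean log2 ratio of Atp6v0a4 to Atp6v0a1 was 2.21 ± 0.42 in kidney (SD, n = 2). Lung had -3.37 ± 0.20, liver -2.19 ± 0.04 and small intestine -3.28 ± 0.03. Kidney was the only tissue in which the restricted form exceeded the other. Kidney minus the others was 5.16 (exact permutation p = 0.0357, adjusted p = 0.0476 over the 4 pairs). The same difference was 3.35 for Atp6v1g3 over Atp6v1g1 and 1.36 for Atp6v1b1 over Atp6v1b2, each with an exact permutation p of 0.0357 and an adjusted p of 0.0476. For Atp6v0d2 over Atp6v0d1 it was 0.98 (exact permutation p = 0.357, adjusted p = 0.357), with lung above kidney in the means, -2.24 ± 0.36 and -2.80 ± 0.45. With reads per length and a floor of 3 reads in place of the added 1, the 4 differences were 8.36, 5.85, 4.09 and 2.36, in the same order of pairs, so the sizes depend on how near-zero values are treated.

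Expressed as a share of the FPKM summed over the genes of a subunit, the restricted forms were a minority in kidney, with the exception of a4. Atp6v0a4 made up 61.5% ± 6.62 of the 4 a-subunit genes in kidney (SD, n = 2), against 0.949% in lung on average and 0.212% and 0.208% in liver and small intestine. Atp6v1b1 made up 19.4% ± 6.63 of the B genes in kidney, 3.62% ± 0.345 in lung and 0% of those of liver and small intestine. Atp6v1g3 made up 18.8% ± 0.945 of the G genes in kidney and at most 0.240% elsewhere in the mean. Atp6v0d2 made up 11.6% ± 3.69 of the d genes in kidney, 16.6% ± 3.66 of those of lung, 2.81% ± 2.02 of those of liver and 0% of those of small intestine. The leading a-subunit gene differed among the tissues. It was Tcirg1, the a3 form of osteoclasts and immune cells, in lung (55.1%) and liver (57.9%), and Atp6v0a2, the a2 form, in small intestine (46.2%). The C subunit showed another order. Its restricted form Atp6v1c2 made up 71.5% ± 0.35 of the C genes in lung and 34.5% ± 4.97 in kidney, against 3.27% in liver and 2.61% in small intestine.

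**Figure D2:**
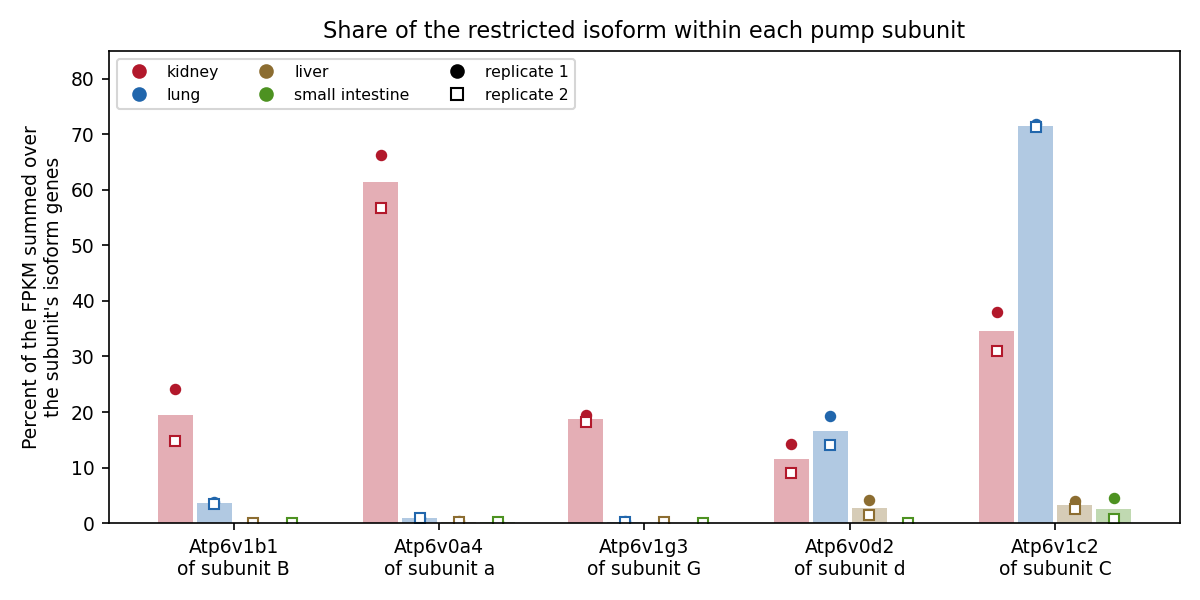
Share of the restricted form in the FPKM summed over the genes of each subunit (percent, vertical axis), for subunits B, a, G, d and C. Bars are means of 2 libraries per tissue, filled circles are replicate 1 and open squares replicate 2. The a4 share is high in kidney alone, at 61.5%, whereas lung exceeds kidney in the mean share of Atp6v0d2 and of Atp6v1c2.

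The remaining genes of the pump were split by sector. Of the 18 other listed subunit and accessory genes, 17 were tested and 8 were called in kidney against the other tissues, where 24.7% of all genes were called in either direction. In the V1 sector 6 of 8 genes tested were called higher, beside 8.65% of all genes. Against lung alone 1 of the 8 was called higher, Atp6v1a by 1.61, and 2 lower, Atp6v1c2 and Atp6v1g2, beside 8.87% and 41.4% of all genes. Against liver and against small intestine 7 of the 8 were called higher, beside 16.2% and 10.7%. The largest difference from the other tissues together was that of Atp6v1a, the catalytic A subunit, which had an FPKM of 103 and 84.5 in kidney, 30.2 and 29.8 in lung, and 8.01 to 10.2 in liver and small intestine (2.67, SE 0.14, limma adjusted p = 5.55e-06). Atp6v1c2, Atp6v1e1, Atp6v1f, Atp6v1d and Atp6v1c1 followed, with differences of 1.34, 1.27, 1.17, 1.12 and 1.09. Atp6v1h (0.94) and Atp6v1g2 (-0.32) were not called, and Atp6v1e2 had 1 read in the 8 libraries together and was not tested. In the V0 sector 1 of 7 genes was called higher, Atp6v0e2 by 1.56 (adjusted p = 7.83e-05), and 1 lower, Tcirg1 by -1.88 (adjusted p = 0.000234). The differences of the other 5, Atp6v0a1, Atp6v0a2, Atp6v0b, Atp6v0c and Atp6v0e, lay between -0.90 and 0.70. The accessory genes Atp6ap1 and Atp6ap2 gave 0.53 and 0.64 and were not called.

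The median difference was 1.14 for the V1 genes, 0.21 for the V0 genes and 0.58 for the accessory genes, beside -0.34 over all genes tested. Under other scalings the median of all genes moved to -0.10, -0.07 or 0.09. Tcirg1, led by lung at an FPKM of 26.9 and 26.6, was lowest in kidney, at 4.77 and 2.20. Atp6v1c2 was higher in lung, at 19.5 and 21.6, than in kidney, at 7.89 and 5.53 (kidney minus lung -1.5, limma adjusted p = 0.000445). Of the 31-base words of Atp6v1f, 18.4% occur in other genes, and 11.9% of those of Atp6v0c do, among them its pseudogenes, which makes their levels uncertain.

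**Figure D3:**
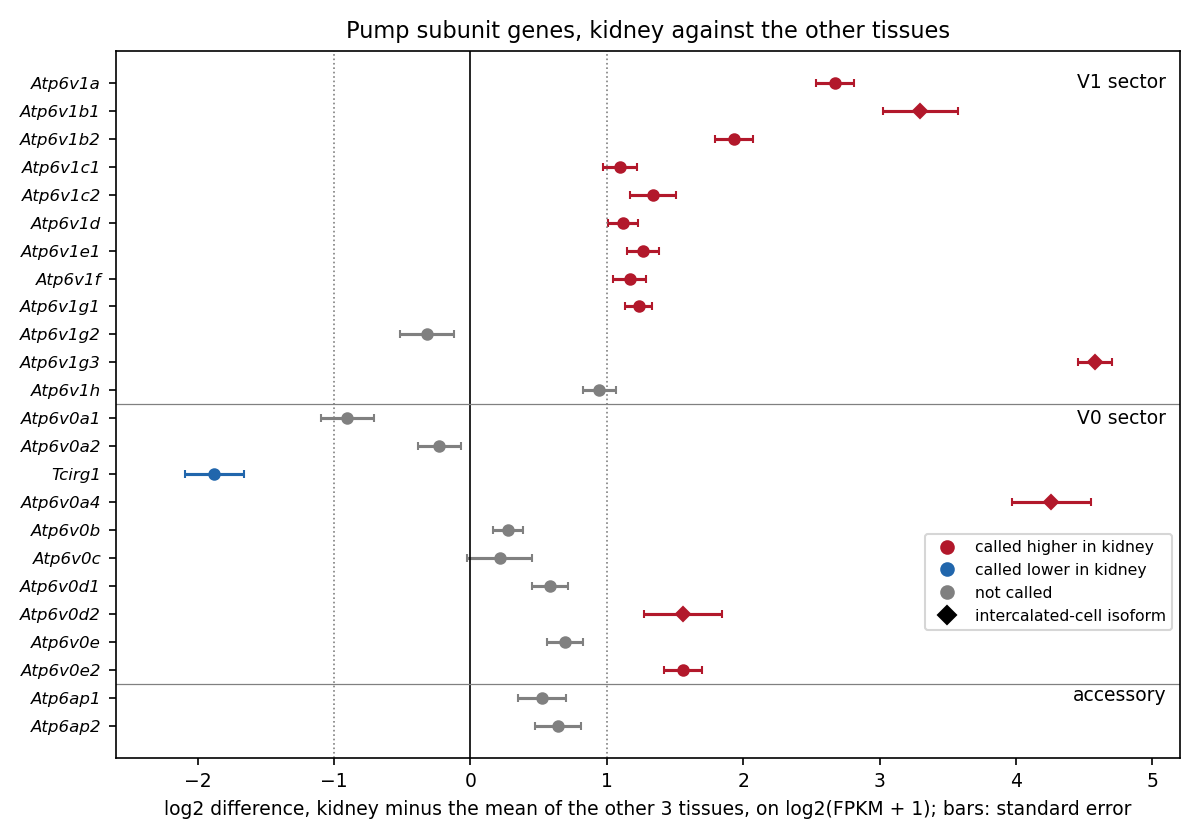
Difference between kidney and the mean of the other 3 tissues for the pump genes tested, on log2(FPKM + 1), with bars of 1 standard error from limma. Diamonds are the restricted forms among the chosen genes, colours give the call, and dotted lines mark an absolute difference of 1. V1 genes lie mostly to the right of 1, most V0 and accessory genes lie between the dotted lines, and Tcirg1 lies at -1.88.

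Other genes known from intercalated cells were compared to see whether the kidney libraries carried the cell type's wider program. Of 15 such genes 10 were tested, 9 were called higher in kidney and 1 lower, beside 8.65% and 16.1% of all genes. For 8 of the 10, an FPKM of 1 was reached in no library outside kidney, so they could be tested only by being high there and the count is a description. Large differences were 4.97 for Rhcg, an ammonia transporter, and 3.67 for Slc4a9, the exchanger AE4 of type B cells. Slc4a9 had an FPKM of 22.7 and 6.70 in kidney and at most 0.110 elsewhere. The gene called lower was Kit, a receptor kinase that mast cells and other cells also carry, at 1.03 and 0.35 in kidney and 12.6 and 14.5 in lung (-1.05, limma adjusted p = 0.00207). The genes not tested were Insrr, Dmrt2, Rhbg, Clnk and Car15. Insrr and Dmrt2 were highest in kidney, with means of 2.73 and 0.873. Rhbg had a mean of 0.788 in kidney and 0.696 in small intestine. Clnk was lower in kidney than in lung (0.446 and 0.532), and Car15 had 0.073 in kidney, 0.254 in lung and 0.290 in small intestine. Other genes overlap 61.4% of the exon length of Rhbg and 65.7% of that of Car15, so their levels are uncertain. The neighbouring principal cells were represented as well. Of their 7 genes 6 were tested and called higher, where 8.65% of all genes were. The gene not tested, Avpr2, had at most 4 reads in kidney, and Arhgap4 overlaps 81.3% of its exon length, so its level is uncertain. Of the genes tested, Aqp2 and Fxyd4 reached the filter in kidney alone, so this count too is a description. It was led by the water channel Aqp2 (6.31), the glucocorticoid-inactivating enzyme Hsd11b2 (5.27) and the water channel Aqp3 (3.55). For 2 of the 6, the sodium channel subunits Scnn1b and Scnn1g, lung was higher still, with an FPKM of 35.7 and 40.8 for Scnn1b against 13.3 and 7.81 in kidney.

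The 7 intercalated-cell genes were all higher in kidney replicate 1 than in replicate 2, to unequal extents. On the log2 scale of FPKM the difference was 1.32 for Atp6v0a4, with an exact 95% counting interval of 1.23 to 1.42. It was 1.30 for Atp6v1b1 (1.16 to 1.45), 1.09 for Foxi1 (0.84 to 1.34) and 0.91 for Atp6v0d2 (0.70 to 1.13). It was 0.86 for Slc26a4 (0.72 to 1.0), 0.79 for Slc4a1 (0.57 to 1.0) and 0.09 for Atp6v1g3 (-0.04 to 0.23). Thus the shift was beyond counting error for 6 of the 7, and the interval of Atp6v1g3 included 0. With single libraries left out in turn, kidney replicates included, the difference of kidney from the other tissues ran from 4.54 to 4.63 for Atp6v1g3, from 3.63 to 4.89 for Atp6v0a4 and from 2.70 to 3.89 for Atp6v1b1. For Slc26a4 it ran from 2.87 to 3.68, for Foxi1 from 2.42 to 3.36, for Slc4a1 from 1.69 to 2.32 and for Atp6v0d2 from 1.16 to 1.96. Between the kidney libraries, the paralogues gave 0.42 for Atp6v1b2, 0.17 for Atp6v0d1 and -0.05 for Atp6v1g1. The medians were 0.91 for the intercalated-cell genes, 0.17 for the paralogues, 0.45 for 14 other intercalated-cell genes, 0.55 for the principal cell genes and -1.24 for the 7 erythroid genes that were above 0 in both libraries and had 10 or more reads in sum.

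Across the 11022 genes compared in kidney, the same difference rose with the length of a gene's exons. Its median was -0.14 for genes under 1500 bases, 0.12 from 1500 to 3000, 0.41 from 3000 to 5000 and 0.78 from 5000 bases upward, with 0.36 over all. Spearman's rho between length and difference was 0.546 across genes, which share the same libraries. The same rho was -0.0248 for lung, -0.339 for small intestine and 5.53e-06 for liver. Atp6v1g3 has 1887 exon bases and Atp6v1g1 1135, while Atp6v0a4 has 4973 and Atp6v1b1 4381. Foxi1 (2357 bases), Atp6v0d2 (2716), Slc26a4 (3109), Slc4a1 (4891), Atp6v1b1 and Atp6v0a4 lay above the median of their length class, and Atp6v1g3 lay just under it. The part of length in the difference between the kidney libraries was not tested.

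**Figure D4:**
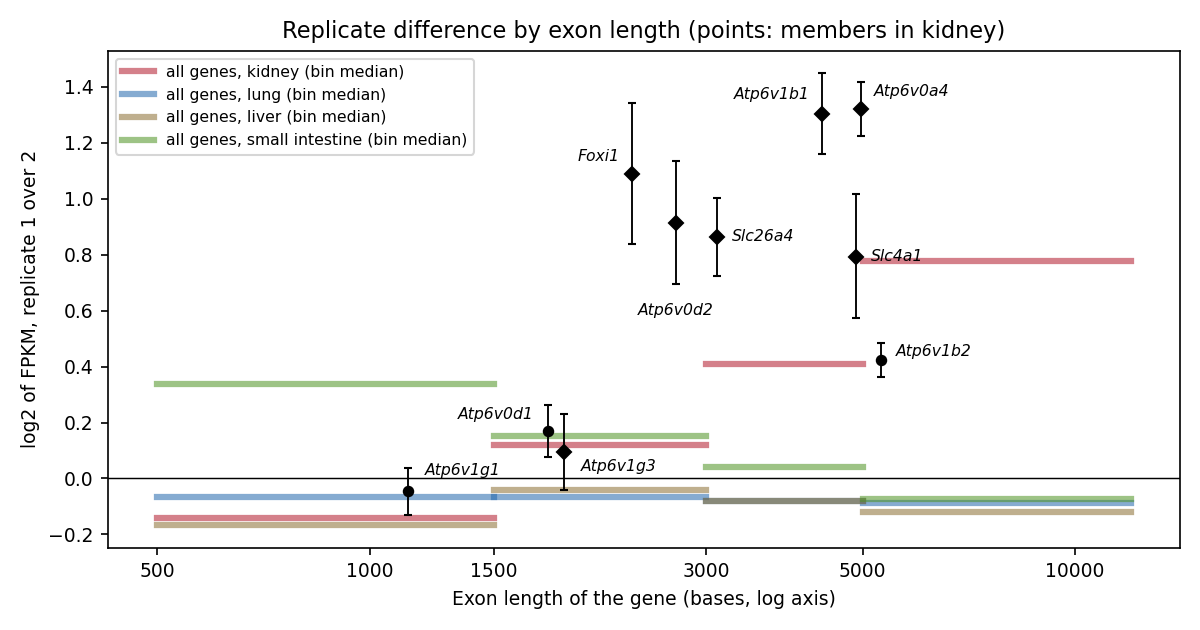
Difference between replicate 1 and replicate 2 on the log2 scale of FPKM, against exon length in bases on a log axis. Points are the 10 genes in kidney (diamonds, intercalated-cell genes; circles, paralogues) with exact 95% counting intervals, and horizontal bars are medians over all genes of a tissue in 4 length classes, of which the outermost are open-ended. Kidney medians rise from -0.14 to 0.78 with length, and Atp6v0a4, Atp6v1b1 and Foxi1 lie above 1.

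For each of the 7 genes, the genes with the most similar pattern were ranked by Pearson's r of log2(FPKM + 1) over the 8 libraries, as a description, since with 2 kidney libraries apart from 6 others many kidney genes reach a high r. Atp6v1g3 was nearest to Rnf183, Fxyd2 and Folr1 (r of 0.999 or more), Fxyd2 being a regulator of the sodium pump. Atp6v1b1 was nearest to Prom2, P3h2 and Wdr72 (0.998 for each), and Atp6v0a4 to Bcat1, Aoah and Stk32b (0.998 to 0.999). Among the genes nearest to Foxi1 were Sim2 and Stk32b, of which Stk32b was also near Atp6v0a4. Slc26a4 was nearest to Galc, Trabd2b and Ghdc (0.993 to 0.997). Slc4a1 was nearest to Nt5dc1 (0.988), D630045J12Rik (0.973) and Gm37670 (0.968). Atp6v0d2, the gene shared with lung, was nearest to Wdr35 (0.997), Mindy4 (0.993) and Otud6b (0.990). Among the 10 genes themselves, Foxi1 and Atp6v0a4 were the closest pair (0.996), and Foxi1 and Atp6v0d2 the least alike (0.473).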

How the data were processed

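Polyadenylated RNA of 4 tissues was sequenced in 8 libraries. Per the study's methods, the authors mapped reads to GRCm38 with STAR 2.5.3a and deposited FPKM values computed by DESeq2's fpkm function. The counting program and its use of strand are not given in the sources used here. FPKM corrects for length and library size, and a few abundant transcripts lower all other values of a library. Of low values up to 50 reads, 94.5% to 96.1% per library were whole reads within 0.02, which gave the depth. Counting intervals and the floor of 3 reads cover counting error only.

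Symbols were matched to GENCODE M21 (51844, 99.3%, matched 1 gene). The test was limma 3.58.1 (R 4.3.3, trend) on log2(FPKM + 1), with Benjamini-Hochberg adjustment over 16328 genes. Paralogue ratios and single genes used exact permutation tests (scipy 1.17.1). Python 3.11.15, numpy 2.4.6, pandas 2.3.3 and matplotlib 3.10.9 were used. On simulated libraries for kidney minus others, 182 of 187 genes changed 4-fold (97.3%) and 63 of 184 changed 2-fold (34.2%) were recovered in runs on 14719 and 14680 genes, and 4.21% and 3.08% of the genes called were false calls. Here a call needed an adjusted p under 0.05 alone, without the required difference of 1. The simulation used a single dispersion for all genes and, apart from the changed genes, equal means in all tissues. These shares are therefore not those of the full rule in these data.

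The members and lists were chosen with earlier results of these data known. Named were the members, the other listed pump genes, in each other list the 3 called genes with the largest difference in kidney and those at 0 there, and the 3 nearest genes of each intercalated-cell gene. Epb42, Ank1, Dcstamp, Ocstamp, Calcr, Ascl3, Tg, Scnn1b, Scnn1g, Fxyd4, Avpr2, Acp5, Ctsk, Stap1, P2ry14 and, in the lysosome list, Lamp1, Ctsd and Ctsb were chosen with their values in view. So were Hba-a1, Csf1r, Itgax, Insrr, Dmrt2, Rhbg, Clnk and Car15. Alternatives changed the pseudocount, filter, scaling, trend, block, test and libraries. Promoters are from RefSeq (GRCm38.p6), where 5 of 7 intercalated-cell genes and 1 of 3 paralogues had an entry. The results of some listed genes are not reported here.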

Additional observations from a re-analysis of the deposited data

How the results depend on the processing

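All 7 intercalated-cell genes were called higher in kidney by limma under each alternative pseudocount, filter and scaling, without trend, by limma-voom, and without any lung, liver or small intestine library. By the exact permutation test of single genes 6 of the 7 had the smallest p, and Atp6v0d2 had a p of 0.357. Leaving out 1 library each, the count ran from 3 to 7, and it was 3 without kidney replicate 1 and 3 without kidney replicate 2, because 4 genes then no longer reached the filter. With the genes of the full filter, an alternative chosen after seeing the data, all 7 were called. The folds without a kidney library were also added after seeing the data. Kidney minus lung for Atp6v0d2 reversed to 0.38 with median-of-ratios scaling, 0.23 with quantile normalization and 0.040 without mitochondrial genes. For Atp6v0d1 it reversed to 1.04, 0.38 and 0.65 under these, and with single libraries left out it ran from -0.13 to 0.038. Kidney minus the others reversed for Atp6v0a2 (0.045, 0.058 and 0.30 under the same scalings), Atp6v1g2 (-0.69 to 0.053 with single libraries left out) and Atp6v0c (-0.25 to 0.67). The cause was not tested. The count of other pump genes ran from 8 to 12, the highest without mitochondrial genes, and that of paralogues from 2 to 3. Leaving out 1 library each, the paralogue differences ran from 0.98 to 1.75 for B1 over B2, 4.86 to 5.46 for a4 over a1 and 3.14 to 3.51 for G3 over G1, and without a kidney library the exact permutation p could not go below 0.143. A pseudocount of 0.1 or limma-voom on recovered reads raised the difference of low genes, for Atp6v1g3 up to 8.52.

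Tissues of a mouse can share a replicate number, but no source used here ties the numbers to mice, and they could not be shown to pair the samples, since deviations of same-numbered libraries correlated between -0.217 and 0.0528 over the 6 pairs of tissues. With the replicate block, the counts stayed at 7, 2 and 8. Within replicate number, the ratios of 1.36, 5.16 and 3.35 had a p of 0.0625, the smallest of 16 exact permutations.

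At this depth, 3 reads are the least that was read as present, so values of liver and small intestine under it are not detectable rather than absent.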

Other observations

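Lysosomes use the same pump, and 14 lysosomal genes were compared across tissues. In kidney against the others, 4 were called higher (8.65% of all genes were), among them the membrane protein Cd63 by 3.42, the sialidase Neu1 by 3.0 and prosaposin, Psap, by 1.20. In the other direction 2 were called, among them the cholesterol carrier Npc1 by -1.43 (limma), beside 16.1% of all genes called lower. The other 8, among them Lamp1, Ctsd and Ctsb, were not called. Cd63 had an FPKM of 184 and 171 in kidney, 36.1 to 46.8 in lung and small intestine and at most 1.68 in liver.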
